A study of Mus musculus with 3 samples.

Results

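The canonical transient receptor potential (TRPC) genes encode subunits of nonselective cation channels. The 5 genes described here, Trpc1, Trpc4, Trpc5, Trpc6 and Trpc7, were chosen by name among 32285 genes listed in a table of single-nucleus counts. All 5 had at least 50 UMIs (unique molecular identifiers, each marking a captured transcript) in neuronal nuclei. Trpc2 was not analysed here.

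TRPC channels are assembled from subunits of the same or of related genes, let sodium and calcium into the cell and depolarise it. They open downstream of receptors that couple to Gq, a G protein that activates phospholipase C. TRPC4 and TRPC5 form a closely related pair that can assemble with TRPC1, whereas TRPC6 and TRPC7 belong to a second branch whose channels are opened by diacylglycerol, a product of phospholipase C. In neurons these channels are known for slow depolarisations and plateau potentials after receptor stimulation.

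Nuclei came from mouse tissue dissected as the lateral habenula (LHb), an epithalamic nucleus that carries aversive signals, of mothers, virgin males and virgin females. The mothers were sexually experienced females. Nuclei were selected by flow cytometry for KASH-GFP, a fluorescent tag anchored in the envelope of the nucleus, and are labelled as BNST LHb neurons, where BNST stands for the bed nucleus of stria terminalis. Tissue of 3 mice per group made 1 library each, so no difference between groups has a replicate check. The labels name neither the strain nor the age, the agent that delivered the tag or the time after birth.

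The libraries held 201 neuronal nuclei for mothers, 204 for virgin males and 187 for virgin females, with 2691639, 2122919 and 2718356 UMIs in that order. The median neuron had 11898 UMIs in mothers, 9414 in virgin males and 13181 in virgin females. The authors' clusters 0 to 4 held 172, 157, 97, 91 and 75 neurons, and were made from these same counts, so levels by cluster are a description without a test. Both of the authors' schemes of subtype labels gave all 592 neurons an LHb name. A further label of the authors, for medial or lateral habenula, named 588 neurons lateral and 4 medial. Pou4f1, 1 of 6 LHb markers, had 0 UMIs in clusters 0, 2 and 3. The summed level of the 6 LHb markers was 889, 1931, 1157, 1176 and 1807 CPM (UMIs scaled to a total of 1000000) in clusters 0 to 4. The single markers did not share 1 order of clusters. In clusters 0 to 4, Gap43 had 229.1, 171.7, 188.3, 144.2 and 235.9 CPM, and Gpr151 12.1, 15.2, 3.21, 0 and 0.825. Pcdh10 had 147.9, 306.5, 196.9, 129.8 and 304.4 CPM, Htr2c 393.3, 734.2, 471.1, 303.5 and 214.9, and Chrm3 106.6, 674.1, 297.2, 598.6 and 1040. The summed level of 6 thalamic markers was 7049, 2085, 8215, 10602 and 1316 CPM in clusters 0 to 4. Clusters are therefore named by number. All intervals are 95% intervals that cover counting error only and treat UMIs as independent.

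Each of the 5 genes has its own locus in the mouse genome (GRCm38, GENCODE annotation M21). Trpc1 spans chr9:95705082-95750375 on the minus strand, Trpc4 chr3:54156035-54318471 on the plus strand and Trpc5 chrX:144381671-144688180 on the minus strand. Trpc6 spans chr9:8544142-8680741 on the plus strand and Trpc7 chr13:56773113-56895993 on the minus strand. What the family shares is shown by 90 coding bases of each gene around the TRP box, a short motif just after the last transmembrane segment, whose 18 bases are in capitals. Sequences are from the GENCODE M21 transcripts, 5′ to 3′ on the coding strand:
Trpc1: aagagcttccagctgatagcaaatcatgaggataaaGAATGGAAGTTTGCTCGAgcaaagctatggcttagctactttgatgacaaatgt
Trpc4: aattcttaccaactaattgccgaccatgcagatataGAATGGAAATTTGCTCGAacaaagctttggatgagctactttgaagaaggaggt
Trpc5: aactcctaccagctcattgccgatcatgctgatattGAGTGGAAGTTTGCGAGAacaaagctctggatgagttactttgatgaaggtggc
Trpc6: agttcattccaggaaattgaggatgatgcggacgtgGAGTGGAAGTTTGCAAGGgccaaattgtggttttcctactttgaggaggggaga
Trpc7: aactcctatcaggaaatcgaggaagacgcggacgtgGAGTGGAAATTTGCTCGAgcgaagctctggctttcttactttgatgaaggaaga

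The sequences show the branches of the family. Trpc4 and Trpc5 shared 74 of the 90 bases and Trpc6 and Trpc7 shared 69, whereas Trpc1 and Trpc6 shared 54. Over all aligned codons, 65.1% of bases were identical between Trpc4 and Trpc5 and 68.7% between Trpc6 and Trpc7, against 47.8% between Trpc1 and Trpc6. The longest exact stretch shared by the transcripts of 2 members was 37 bases, between Trpc5 and Trpc7, and all other pairs of members shared at most 24. The handling of reads that match more than 1 gene is not stated.

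Trpc1 and Trpc5 were the most abundant members and Trpc4 and Trpc6 the least. Over all neurons, Trpc5 had 892 UMIs, Trpc1 738, Trpc7 267, Trpc4 114 and Trpc6 94. Levels were also set side by side per length, and whether the UMIs of these genes follow length was not tested. Per kb of the spliced transcript, the mean level of the 3 libraries was 28.9 CPM for Trpc5, 21.6 for Trpc1, 10.0 for Trpc7, 4.29 for Trpc4 and 3.74 for Trpc6. Per kb of gene span, which is the fitting length where intronic reads were counted, Trpc1 was highest at 2.17 CPM, followed by Trpc5 at 0.391, Trpc7 at 0.285, Trpc4 at 0.0918 and Trpc6 at 0.0893. By these means, the order of Trpc1 and Trpc5 depended on the length used, and that of the other members did not. In mothers, however, Trpc6 was above Trpc4 by both lengths. It had 4.45 against 3.64 CPM per kb of transcript and 0.106 against 0.0778 CPM per kb of span. In virgin males and virgin females, Trpc4 was above Trpc6 by both lengths.

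Trpc1, the subunit that joins other TRPC subunits, was detected in the most neurons, 62.3% (58.3 to 66.2%). Trpc5 was detected in 54.7%, Trpc7 in 29.4%, Trpc4 in 12.2% and Trpc6 in 10.5%. Among the 11 non-neuronal nuclei, whose median of 4780 UMIs was below the 11380 of neurons, 2 had Trpc1 and 1 had Trpc5, and Trpc4, Trpc6 and Trpc7 had no UMI. With 0 of 11 nuclei, the Clopper-Pearson interval of the share of nuclei with a UMI runs up to 28.5%, so these few nuclei set no useful background for the rarer members.

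**Figure D1:**
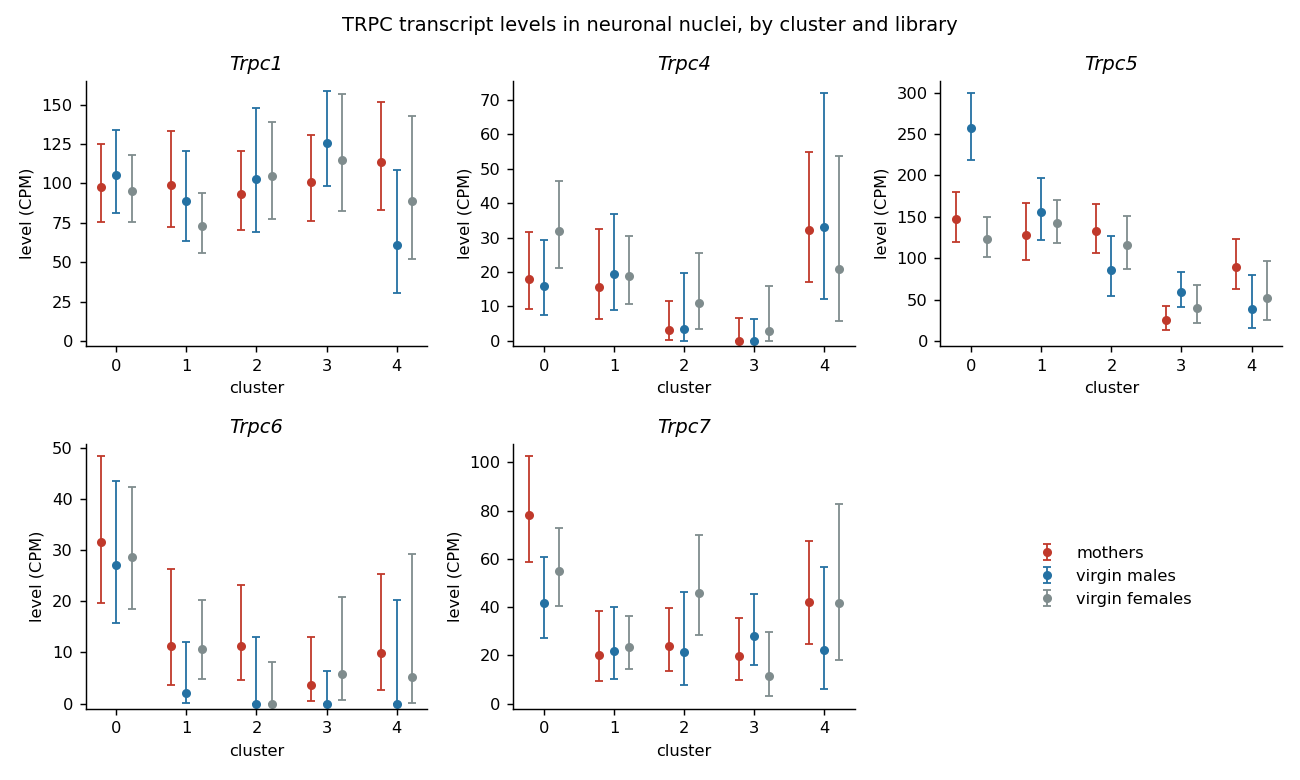
Level (CPM, vertical axis) of each TRPC gene in the authors' clusters 0 to 4 (horizontal axis) in mothers, virgin males and virgin females; points are summed UMIs of neuronal nuclei over total UMIs, and bars are exact Poisson 95% intervals. Trpc1 is near 100.3 CPM in cluster 2 and close to that in the others, Trpc4 is near 0 in cluster 3, and Trpc6 is highest in cluster 0 in every library.

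The members differed in how unevenly they were spread over the clusters. As a measure, the mean level of the highest cluster was divided by the mean of the other 4. This ratio passed 2-fold for 3 of the 5 members (Trpc4, Trpc6 and Trpc7), against 18.6% of 11467 genes with at least 50 UMIs. It passed 2-fold in each of the 3 libraries for 1 member, Trpc6, against 8.53% of those genes. The median log2 ratio was 1.12 for the 5 members and 0.55 for all genes tested.

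Trpc1 was close to even across clusters. Its level in mothers was 97.9, 99.1, 93.1, 100.6 and 113.9 CPM in clusters 0 to 4. In virgin males it was 105.3, 88.8, 103.01, 125.9 and 60.6 CPM, and in virgin females 95.03, 73.1, 104.8, 115.1 and 89.0 CPM. No cluster stood apart, and the ranges of every pair of neighbours in the order of levels overlapped. The highest cluster, 3, was 1.22-fold over the mean of the others, and the 60.6 CPM of cluster 4 in virgin males rested on 11 UMIs.

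Trpc4, a pore-forming subunit of the Trpc4 and Trpc5 pair, was found mostly in clusters 0, 1 and 4. In mothers its level was 18.1, 15.8, 3.21, 0 and 32.2 CPM in clusters 0 to 4. In virgin males it was 15.96, 19.5, 3.55, 0 and 33.1 CPM, and in virgin females 32.1, 18.9, 10.9, 2.88 and 20.9 CPM. In each library the levels of clusters 0, 1 and 4 were all above those of clusters 2 and 3, and the 3-library ranges of the sets did not overlap. Clusters 0, 1 and 4 together held 105 UMIs in 68 of 404 nuclei, and clusters 2 and 3 held 9 UMIs in 4 of 188 nuclei. The grouping was chosen after the values were seen, and the ratio was 7.06 (3.58 to 15.9). It was 12.5 (3.19 to 107.5) in mothers, 16.8 (2.75 to 689.9) in virgin males and 3.37 (1.44 to 9.64) in virgin females. In virgin females, all 5 UMIs of cluster 2 were in 1 nucleus. Cluster 3 held 1 UMI in 91 nuclei, although its nuclei were among the deepest, with library medians of 12968 to 19364 UMIs.

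The 2-fold call of Trpc4 rests on a modest margin. Cluster 4, the highest, averaged 28.7 CPM, 2.45-fold over the mean of the others. By library the ratio was 3.47 in mothers, 3.39 in virgin males and 1.29 in virgin females, where cluster 0 was the highest instead. Clusters 4, 0 and 1 were in overlapping ranges, whereas clusters 1 and 2, and clusters 2 and 3, did not overlap between their 3-library ranges. The ratio was below 2-fold when each nucleus had equal weight and when nuclei were thinned to 5000 UMIs.

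Trpc5, the close relative of Trpc4, was higher in clusters 0, 1 and 2 than in clusters 3 and 4. In mothers its level was 147.6, 128.4, 133.2, 25.1 and 89.1 CPM in clusters 0 to 4. In virgin males it was 257.0, 156.0, 85.2, 59.5 and 38.6 CPM, and in virgin females 123.7, 142.7, 115.7, 40.3 and 52.4 CPM. The order of clusters 0 to 2 differed between libraries, and the 3-library ranges of neighbours in the order of means overlapped at each step. Clusters 0, 1 and 2 together were 2.88-fold (2.37 to 3.54) over clusters 3 and 4, a grouping also chosen after the values were seen. The ratio was 2.64 in mothers, 3.45 in virgin males and 2.90 in virgin females. At an equal depth of 5000 UMIs, clusters 0, 1 and 2 had Trpc5 in 47.4%, 44.9% and 40.4% of nuclei, and clusters 3 and 4 in 14.6% and 26.1%.

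Trpc5os, annotated on the opposite strand within Trpc5, shares 20486 bases with the Trpc5 span. It had 17 UMIs in neurons, against 892 for Trpc5. The strand setting of the counting is not stated, and whether reads of the pair were separated where they overlap was not tested.

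Trpc4 and Trpc5 both had their lowest mean in cluster 3, and their levels in clusters 2 and 4 were less alike. In cluster 2, Trpc5 was at 111.4 CPM (85.2 to 133.2 over the libraries), while Trpc4 was at 5.89 CPM (3.21 to 10.9). In cluster 4, where Trpc4 was at its highest mean, Trpc5 averaged 60.0 CPM (38.6 to 89.1). In single nuclei the pair was detected together in 24 neurons. These were 33.3% of neurons with Trpc4, whereas Trpc5 was detected in 54.7% of all neurons. Within clusters the share of Trpc4 nuclei with Trpc5 was 11 of 34 in cluster 0, where 66.9% of all nuclei had Trpc5, and 6 of 18 in cluster 1, where 54.8% had it. In cluster 4 it was 4 of 16, with Trpc5 in 29.3% of all nuclei. With so few nuclei and sparse counts, these shares are given without a test.

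Trpc1 was found with either of the pair. It was detected in 69.4% of neurons with Trpc4 and in 71.0% of neurons with Trpc5, against 62.3% of all neurons, and the nuclei share depth, which raises detection of every gene. No TRPC member was detected in 73 of 592 neurons, 1 in 188, 2 in 206, 3 in 101, 4 in 22 and all 5 in 2. Both nuclei with all 5 were in cluster 0, where 27.9% of nuclei had 3 members, 8.72% had 4 and 1.16% had 5.

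Trpc6, of the branch opened by diacylglycerol, was the member most concentrated in a single cluster. In cluster 0 its level was 31.6 CPM in mothers, 27.1 in virgin males and 28.6 in virgin females. Outside cluster 0 it was between 3.59 and 11.3 CPM in mothers, between 0 and 2.17 in virgin males and between 0 and 10.6 in virgin females. Cluster 0 was thus the highest in 3 of 3 libraries, and its range did not overlap that of any other cluster. It held 63 of the 94 UMIs, in 38 of 172 nuclei, and was 5.04-fold (3.23 to 8.02) over the other clusters together. The ratio was 3.56 (1.81 to 7.09) in mothers, 40.6 (6.36 to 1697) in virgin males and 4.40 (2.13 to 9.61) in virgin females. The value in virgin males rests on 1 UMI outside cluster 0, in 140 nuclei. Cluster 0 was singled out after the values were seen, so these ratios and their intervals carry that choice. Of the genes tested, 18.6% passed 2-fold in whichever cluster was highest, and 8.53% did so in each library. The share with cluster 0 as that cluster was 3.37%.

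The authors' subtype labels divided Trpc6 further within clusters 0 and 1. The split, with 1 of the 2 schemes used in cluster 0 and the other in cluster 1, was chosen after the values were seen. In cluster 0, the 149 nuclei labelled lhb_3 held 61 UMIs of Trpc6, or 34.9 CPM (26.7 to 44.8). The 21 nuclei labelled lhb_1 held none in 410813 UMIs, an upper bound of 8.98 CPM, and the remaining 2 UMIs were in 1 nucleus labelled lhb_2. In cluster 1, the 86 nuclei labelled LHb2 held 15 UMIs, or 14.0 CPM (7.82 to 23.0), and the 71 labelled LHb4 held none in 679663 UMIs, an upper bound of 5.43 CPM. The level was 0 in all 3 libraries in the lhb_1 nuclei of cluster 0 and in the LHb4 nuclei of cluster 1. The lhb_1 label did not mark an absence of Trpc6 outside cluster 0. Over all neurons, nuclei with that label held 30 UMIs of Trpc6, in 23 of 402 nuclei. Trpc7 did not follow the division of cluster 0, with 97.4 CPM (69.6 to 132.6) in its lhb_1 nuclei and 49.2 CPM (39.4 to 60.8) in its lhb_3 nuclei. In mothers these levels were 126.8 and 63.2 CPM, and in virgin females 90.9 and 44.8 CPM. In virgin males they were 36.3 and 42.0 CPM, the first from 2 UMIs in 4 nuclei.

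Trpc7, from the same branch as Trpc6, was also highest in cluster 0 but was present in every cluster. In mothers its level was 78.3, 20.3, 24.1, 19.8 and 42.1 CPM in clusters 0 to 4. In virgin males it was 41.5, 21.7, 21.3, 28.0 and 22.0 CPM, and in virgin females 55.0, 23.6, 45.8, 11.5 and 41.9 CPM. Cluster 0 was the highest in 3 of 3 libraries, although its range overlapped those of clusters 2 and 4. The ratio of cluster 0 to the mean of the others was 2.17 over the mean of the libraries, 2.95 in mothers, 1.79 in virgin males and 1.79 in virgin females, so the 2-fold call rested on the library of mothers and the log2 ratio was 0.84 without it. Both Trpc6 and Trpc7 were detected in 24 neurons, 19 of them in cluster 0, where 38 nuclei had Trpc6 and 72 had Trpc7.

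**Figure D2:**
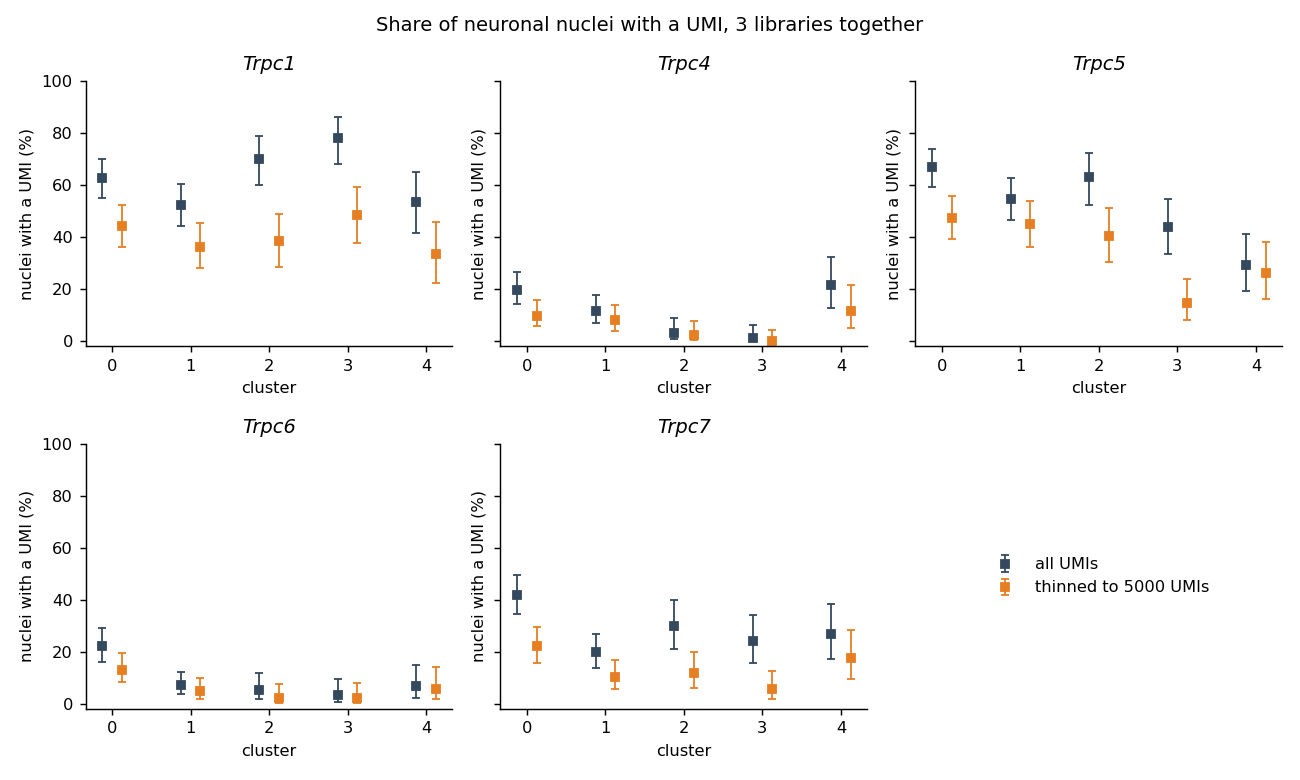
Percent of neuronal nuclei with at least 1 UMI of each gene (vertical axis) by cluster (horizontal axis), from all UMIs and after thinning each nucleus to 5000 UMIs; bars are Clopper-Pearson 95% intervals. Thinning lowers every share, and Trpc1 keeps 33.3% to 48.3% of nuclei in each cluster while Trpc4 has no UMI left in cluster 3.

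Shares of nuclei were lower at equal depth. Thinning each nucleus to 5000 UMIs left 533 neurons (187 of mothers, 174 of virgin males and 172 of virgin females) and left out 59. Unthinned, Trpc1 was detected in 78.0% of nuclei in cluster 3 and 52.2% in cluster 1, and thinned in 48.3% and 36.2%. For Trpc6, the thinned share was 12.99% in cluster 0 and between 2.13% and 5.80% in the others. For Trpc7 it was 22.1% in cluster 0, 17.4% in cluster 4 and between 5.62% and 11.7% in clusters 1, 2 and 3.

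Between libraries, over all neurons, most members were within 1.5-fold. Of the 5 members, 1 (Trpc4) was past 1.5-fold in mothers over virgin females, against 7.49% of 10388 genes. In virgin males over virgin females 2 of 5 were (Trpc4 and Trpc6), against 7.56% of 10024 genes, and in mothers over virgin males 1 of 5 (Trpc6), against 7.27% of 9990 genes. Intervals without 1 were found for 1 of 5 members in each comparison, against 16.7%, 14.4% and 14% of genes in the same order. The comparisons share libraries. Clusters also made up unlike parts of each library: cluster 0 held 23.4% of neurons in mothers, 31.4% in virgin males and 32.6% in virgin females, and cluster 1 held 19.4%, 26.0% and 34.8%.

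Trpc1 had 99.9 CPM in mothers, 103.2 in virgin males and 92.0 in virgin females. Each pair of libraries was within the counting interval of 1, and the ratio of mothers to virgin females was 1.09 (0.911 to 1.30). Trpc7 had 38.6, 29.2 and 37.2 CPM in the same order, with a ratio of virgin males to virgin females of 0.786 (0.563 to 1.09). For neither gene did the interval of any pair of libraries leave out 1 over all neurons.

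Trpc4 was lower in mothers and in virgin males than in virgin females. It had 12.6 CPM in mothers, 12.2 in virgin males and 19.9 in virgin females, from 34, 26 and 54 UMIs. The ratio to virgin females was 0.636 (0.401 to 0.995) for mothers and 0.617 (0.371 to 1.00) for virgin males, so the first interval ended just short of 1 and the second just past it. In cluster 0, which held the most Trpc4 UMIs, the ratios were 0.564 (0.261 to 1.14) and 0.498 (0.216 to 1.06), and both intervals held 1. Trpc6, with 14.5 CPM in mothers, 8.48 in virgin males and 13.6 in virgin females, had ratios of 1.71 (0.955 to 3.17) for mothers over virgin males and 0.623 (0.334 to 1.12) for virgin males over virgin females. These rested on 39, 18 and 37 UMIs, and within cluster 0 the ratios were 1.17 (0.586 to 2.35) and 0.948 (0.480 to 1.83).

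Trpc5 was higher in the library of virgin males. It had 107.0 CPM in mothers, 140.4 in virgin males and 112.6 in virgin females. The ratio of virgin males to virgin females was 1.25 (1.06 to 1.47) and that of mothers to virgin males 0.762 (0.646 to 0.899), while that of mothers to virgin females was 0.951 (0.806 to 1.12). The size is within 1.5-fold in each case, and virgin males had the shallowest nuclei of the 3 libraries. When nuclei were thinned to 5000 UMIs, the log2 ratio of virgin males to virgin females was 0.08 in place of 0.32.

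**Figure D3:**
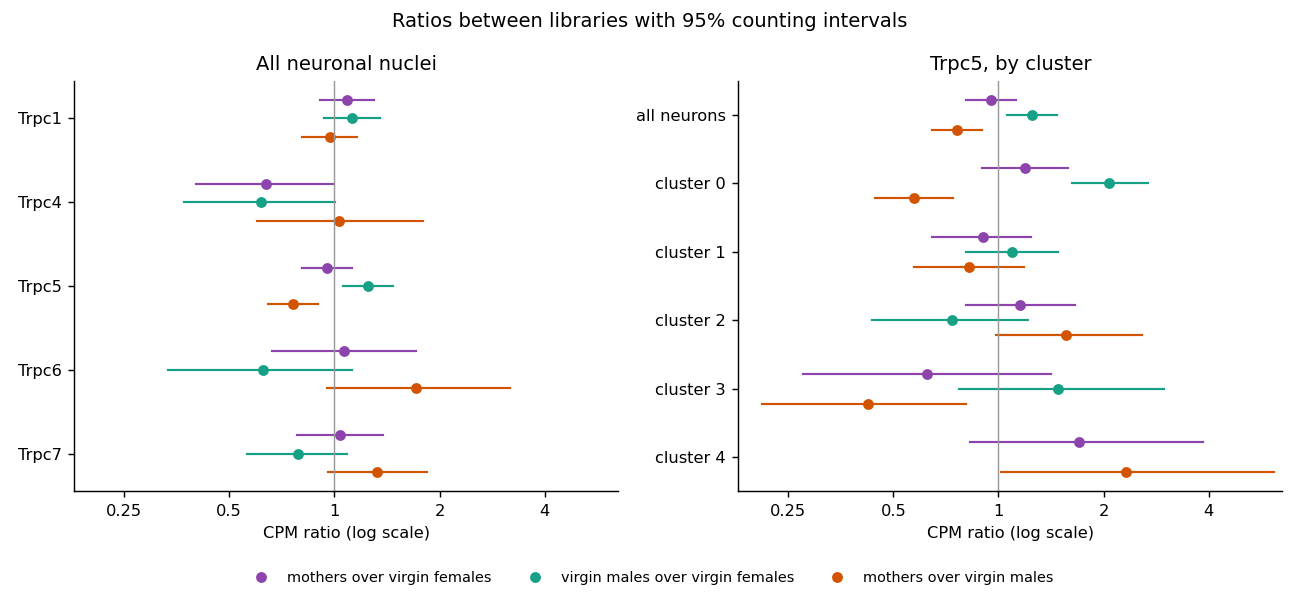
CPM ratios between libraries (horizontal axis, log scale) for the 5 members over all neuronal nuclei (left) and for Trpc5 by cluster (right); points are ratios and lines are exact conditional binomial 95% intervals, with pairs of under 20 UMIs in a cluster left out. The interval of Trpc5 in virgin males over virgin females lies from 1.62 to 2.68 in cluster 0 and holds 1 in clusters 1, 2 and 3.

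In cluster 0, Trpc5 was higher in virgin males than in both other libraries. There it had 147.6 CPM in mothers, 257.0 in virgin males and 123.7 in virgin females, from 98, 161 and 108 UMIs. The interval of virgin males, 218.8 to 299.9 CPM, lay above those of the other libraries. The ratio was 2.08 (1.62 to 2.68) for virgin males over virgin females and 0.574 (0.442 to 0.743) for mothers over virgin males. Within cluster 0, 20.9% of 8919 genes passed 1.5-fold in the first of these comparisons and 11.3% had an interval without 1, and in the second 21% of 8327 genes and 11.2%. Of 49 ratios of members within clusters that had at least 20 UMIs, 5 (10.2%) had an interval without 1, of which 3 were in cluster 0. That share was near the one over all genes, which was 8.43% to 13.4% depending on cluster and comparison.

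The UMIs of virgin males were spread over many nuclei. In cluster 0, 31 of 47 nuclei had a Trpc5 UMI in mothers, 46 of 64 in virgin males and 38 of 61 in virgin females. The highest nucleus had 8 UMIs in mothers, 12 in virgin males and 11 in virgin females, and the top 5 nuclei held 31.6%, 25.5% and 34.3% of the UMIs. At 5000 UMIs per nucleus, 43.2% of nuclei in mothers, 60.7% in virgin males and 37.0% in virgin females had a UMI. The ratio of virgin males to virgin females was 2.15 without the nucleus with most Trpc5 UMIs in each library, 2.03 with equal weight for each nucleus, 1.83 after thinning, 1.90 without the 5% of nuclei with most UMIs and 1.92 in the nuclei labelled lhb_3. These settings were chosen after the data were seen. Trpc5os had 2 UMIs in cluster 0 of mothers, 4 in that of virgin males and 1 in that of virgin females.

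**Figure D4:**
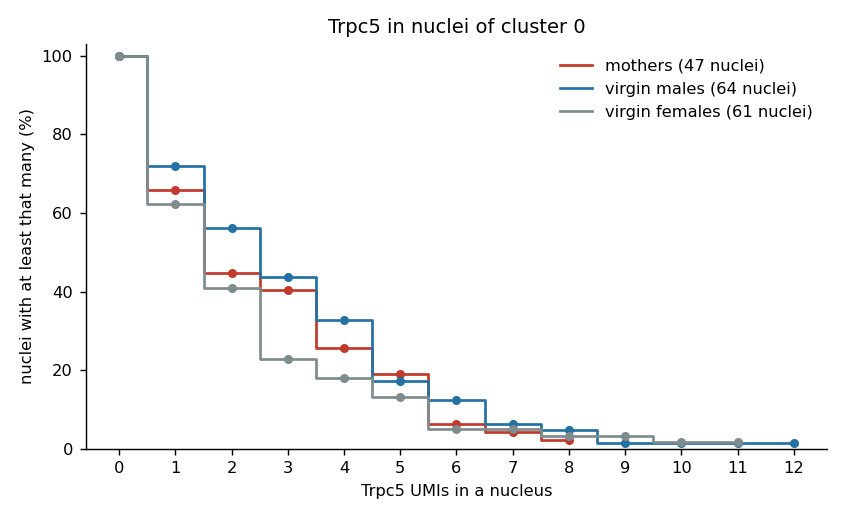
Percent of cluster 0 nuclei (vertical axis) with at least a given number of Trpc5 UMIs (horizontal axis) in mothers (47 nuclei), virgin males (64) and virgin females (61). The curve of virgin males is above both others from 1 to 4 UMIs, with 44.7% of nuclei at 2 or more UMIs in mothers, 56.2% in virgin males and 41.0% in virgin females.

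The ratio of virgin males to virgin females for Trpc5 was 1.09 (0.805 to 1.48) in cluster 1, 0.737 (0.435 to 1.22) in cluster 2 and 1.48 (0.772 to 2.98) in cluster 3. Virgin males were the highest library in clusters 1 and 3 too, but all 3 intervals held 1, and the difference between clusters was not tested. In cluster 1 the summed level of ependymal and choroid markers was between 17.7 and 1659 CPM over the libraries. Ttr alone averaged 523.5 of their mean of 571.1 CPM there. Over all neurons the summed level was 389.1 CPM in virgin males, 32.0 in mothers and 20.2 in virgin females. The part of these markers in ratios within cluster 1 was not tested. For mothers over virgin males the ratio of Trpc5 was 0.423 (0.210 to 0.809) in cluster 3, from 14 and 34 UMIs, and 2.31 (1.01 to 6.15) in cluster 4, from 36 and 7 UMIs. In that comparison 13.4% of genes in cluster 3 and 8.43% in cluster 4 had an interval without 1. For Trpc7, the ratio of mothers to virgin males was 1.89 (1.16 to 3.15) in cluster 0, from 52 and 26 UMIs, and no other ratio of Trpc7 within a cluster had an interval without 1.

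The genes most like a member in pattern were found by the correlation of log2(CPM + 10) over 15 sums, those of 5 clusters in 3 libraries, among 6248 genes with at least 200 UMIs. These sums share library and depth, so the correlations are descriptions. For Trpc1 the closest genes were Sfpq (0.92), Cops4 (0.86), Ptar1 (0.83), C2cd2l (0.83) and Ubr3 (0.83). For Trpc5 they were Kif13a (0.88), Pak3 (0.87), Kpna3 (0.85), Lhfpl3 (0.85) and Gm32647 (0.84). For Trpc7 they were Fnbp1l (0.89), Crb1 (0.86), Phlpp2 (0.84), B3galt1 (0.83) and Syt17 (0.83). Gm32647 had the same order of clusters as Trpc5, with 3184, 1009, 752.0, 254.4 and 273.7 CPM in clusters 0 to 4, and Crb1, like Trpc7, was highest in cluster 0, at 105.1 CPM. Trpc4 and Trpc6 were under 200 UMIs and were not compared.

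The receptors and enzymes that stand upstream of TRPC channels also differed between clusters. Of 15 Gq-coupled receptor genes with at least 50 UMIs, 12 passed 2-fold between clusters, against 18.6% of all genes, and 8 did so in each library. Nmbr, the neuromedin B receptor, had 26.2 CPM in cluster 0 and 1.70 on average in the others. Hrh1, the histamine H1 receptor, had 50.4 CPM in cluster 0 and 6.09 in the others. Cluster 0 was thus the highest for both receptors and for Trpc5, Trpc6 and Trpc7. Adra1a, an alpha1 adrenergic receptor, had 85.3 CPM in cluster 4, against 6.90 in the others, and Tacr1, the receptor of substance P, 67.6 against 8.17 CPM. Cluster 4 was also where the mean of Trpc4 was highest.

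Between libraries, the receptors past 1.5-fold differed from comparison to comparison, and those lower in mothers included Htr2c and Htr2a. Htr2c, a serotonin receptor, had 313.6 CPM in mothers, 531.8 in virgin males and 523.1 in virgin females, a ratio of 0.599 (0.550 to 0.653) to virgin females and 0.590 (0.539 to 0.645) to virgin males. Htr2a, a related receptor, had ratios of 0.555 (0.314 to 0.957) and 0.457 (0.257 to 0.792) in the same order. Adra1a was at 0.631 (0.402 to 0.980) of virgin females in mothers and at 0.480 (0.276 to 0.806) in virgin males. Of the receptors with enough UMIs, 3 of 11 were lower and 0 were higher past 1.5-fold in mothers over virgin females, and all 3 had an interval without 1. Of all genes, 7.49% were past 1.5-fold in either direction in that comparison, 7.56% in virgin males over virgin females and 7.27% in mothers over virgin males. In virgin males over virgin females 3 of 13 were lower (Adra1a, Tacr1 and Hcrtr2, the orexin receptor 2) and 1 was higher (Lpar1, a lysophosphatidic acid receptor, at 1.92, 1.09 to 3.46). In mothers over virgin males 4 of 12 were lower and 1 was higher past 1.5-fold. Of these, Htr2a, Htr2c and Hrh1 (0.650, 0.421 to 0.997) and, on the higher side, Tacr1 (2.09, 1.17 to 3.89) had an interval without 1.

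The libraries differed in their mix of clusters, so each ratio between libraries named for a pathway gene was also taken within the cluster of the gene's highest mean, a setting added after the data were seen. Of 22 such ratios, 20 had at least 20 UMIs there, and 10 of the 20 had an interval without 1. These ratios had been named for an interval without 1 over all neurons, from counts that include those of the cluster. The count is therefore no independent check. Among all genes with at least 20 UMIs, 8.43% to 13.4% had an interval without 1 within a cluster, depending on cluster and comparison. In cluster 1, Htr2c was at 0.601 (0.506 to 0.710) for mothers over virgin females and at 0.377 (0.317 to 0.448) for mothers over virgin males. In cluster 2, Hcrtr2 was at 1.24 (0.556 to 2.72) for virgin males over virgin females, on the other side of 1 from its ratio over all neurons, 0.624 (0.412 to 0.931). For Tacr1 in cluster 4, the ratio was 0.219 (0.0653 to 0.586) for virgin males over virgin females and 1.80 (0.655 to 6.13) for mothers over virgin males. For Adra1a in cluster 4, it was 0.335 (0.169 to 0.650) for mothers over virgin females and 0.701 (0.348 to 1.38) for virgin males over virgin females. For Hrh1 in cluster 0, it was 0.644 (0.384 to 1.07) for mothers over virgin males.

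Among 14 genes of Gq and phospholipase C, 6 passed 2-fold between clusters (42.9%, against 18.6% of all genes). Plch1, a phospholipase C, had 110.8 CPM in cluster 4 and 28.9 on average in the others. Plcl1, a related protein without phospholipase activity, had 416.9 CPM in cluster 1 and 129.4 in the others. Plch2 and Rgs8, a regulator of G protein signalling, were highest in cluster 3, at 97.6 and 111.1 CPM, against 38.0 and 44.7 in the others. Clusters 1 and 4 were both high for Plch1, with 83.2 CPM in cluster 1, and for Plcl1, with 368.3 CPM in cluster 4. For Plch2 and Rgs8, cluster 2 came next, at 72.7 and 78.2 CPM. None of the genes of this group with 50 UMIs in a pair of libraries passed 1.5-fold (14 genes in mothers over virgin females and 12 in each other comparison).

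Of 19 genes that make or remove diacylglycerol and phosphoinositides, 5 passed 2-fold (26.3%, against 18.6% of all genes). They included 4 of 10 diacylglycerol kinases, enzymes that remove the ligand of the Trpc6 and Trpc7 branch. Dgkb had 1356 CPM in cluster 4, against 187.7 in the others, and Dgkg 139.4 against 50.1 CPM. Dgka had 35.7 CPM in cluster 1, against 12.5 in the others, and Dgkk 16.5 against 4.52 CPM. A second cluster came close for Dgkg, with 120.4 CPM in cluster 0, and for Dgka, with 33.2 CPM in cluster 4. Dgkk had 51 UMIs in all and passed 2-fold in 1 of 3 libraries. In cluster 0, Dgka was at 4.43 CPM, close to its lowest level. Cluster 3 had the lowest level of these 4 kinases, with 55.5, 5.43, 4.30 and 1.198 CPM for Dgkb, Dgkg, Dgka and Dgkk. This did not hold for every kinase: Dgki had 1198 CPM in cluster 3 and between 345.5 and 1026 in the others, and Dgkh 250.8 against 75.6 to 220.6 CPM, a pair named after their values were seen. Itpkb, an inositol trisphosphate kinase, had 11.9 CPM in mothers, 29.7 in virgin males and 14.3 in virgin females, a ratio of 2.07 (1.37 to 3.17) for virgin males over virgin females and 0.401 (0.253 to 0.622) for mothers over virgin males. In cluster 3, its highest, these ratios were 3.89 (1.505 to 12.8) and 0.0963 (0.0189 to 0.308), from 3, 32 and 5 UMIs in mothers, virgin males and virgin females.

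Calcium stores showed 3 of 9 genes past 2-fold (33.3%, against 18.6% of all genes). Ryr2, a ryanodine receptor, had 802 CPM in cluster 4 and 131.9 on average in the others, with 4.50 in cluster 3. Ryr3 was highest in cluster 3, at 1139 against 349.3 CPM, and Atp2a2, the calcium pump of the store, at 859.3 against 393.2 CPM. Atp2a2 was also at 769.8 CPM in cluster 2 and passed 2-fold in 2 of 3 libraries. Orai2, a store-operated channel subunit, had a ratio of 1.53 (1.06 to 2.22) for mothers over virgin males, and of 1.29 (0.718 to 2.34) within cluster 0.

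**Figure D5:**
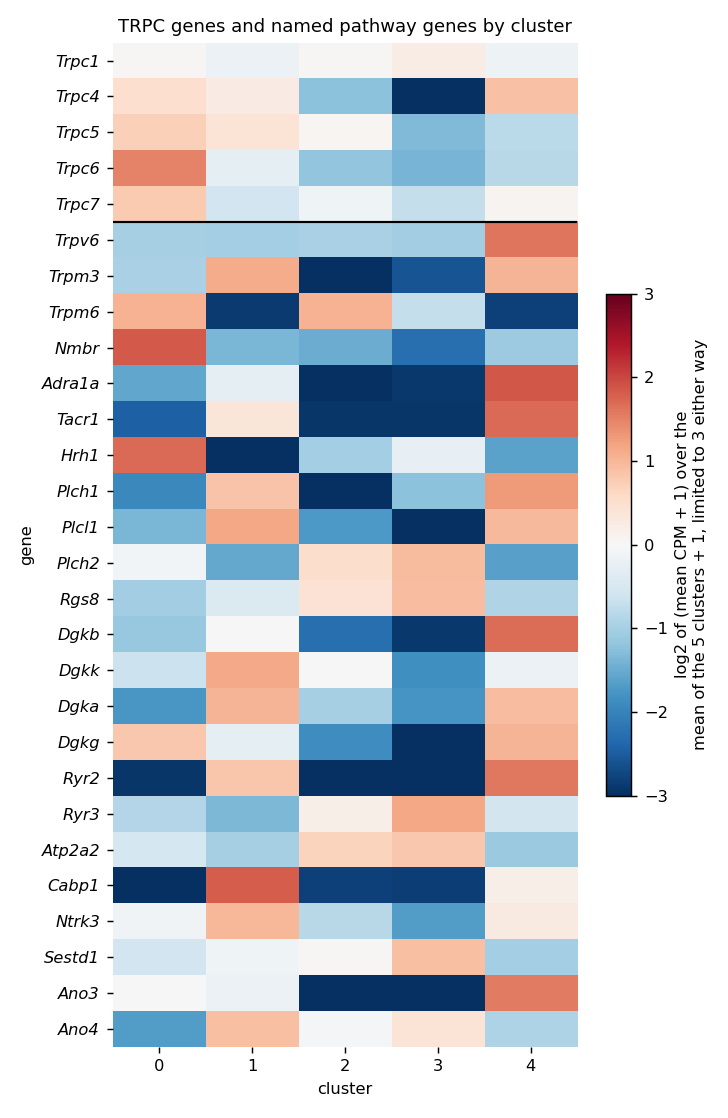
Mean level of TRPC genes (rows above the line) and of pathway genes past 2-fold (below the line) in clusters 0 to 4, coloured by log2 of (mean CPM + 1) over the mean of the 5 clusters + 1, limited to 3 either way. Trpc1 is nearly white across clusters, Trpc6 is darkest in cluster 0 and Trpc4 is lowest in cluster 3.

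Of 20 binding partners of TRPC channels, 3 passed 2-fold, a share of 15% that is below the 18.6% of all genes. Cabp1, a calcium-binding protein that interacts with TRPC5, had 170.9 CPM in cluster 1, against 16.6 in the others, and 1.14 in cluster 0, where Trpc5 had its highest mean. Ntrk3, a neurotrophin receptor, was highest in cluster 1, at 584.4 against 217.4 CPM. Sestd1, a phospholipid-binding partner of TRPC4 and TRPC5, was highest in cluster 3, at 216.1 against 88.9 CPM, where both genes were at their lowest. Over all neurons Cabp1 was lower in mothers than in virgin females, at 37.5 against 60.0 CPM (ratio 0.626, 0.483 to 0.807). Within cluster 1, which held 19.4% of neurons in mothers and 34.8% in virgin females, it was at 164.4 against 168.6 CPM (ratio 0.975, 0.725 to 1.30). Slc9a3r2, a scaffold protein, had ratios of 0.549 (0.297 to 0.974) for virgin males over virgin females and 1.84 (1.04 to 3.40) for mothers over virgin males, and Plk2 had 0.491 (0.308 to 0.773) for mothers over virgin males. Within cluster 0, its highest, Plk2 was at 0.270 (0.106 to 0.607). Within cluster 1, its highest, Slc9a3r2 was at 0.438 (0.129 to 1.19) for virgin males over virgin females.

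Other channels that can depolarise neurons were compared last. Of 10 TRP genes outside the family, 3 passed 2-fold (30%, against 18.6% of all genes). Trpv6, a calcium channel, had 35.6 CPM in cluster 4, against 5.00 in the others. Trpm3 had 1240 CPM in cluster 1, against 401.6 on average in the others, but 1158 in cluster 4. Trpm6 had 36.8 CPM in cluster 2, against 12.4 on average in the others, but 36.5 in cluster 0. Both passed 2-fold in 2 of 3 libraries. Trpm6 had ratios of 0.459 (0.275 to 0.741) for virgin males over virgin females and 1.94 (1.19 to 3.26) for mothers over virgin males, and Trpm4, a calcium-activated cation channel, 1.95 (1.16 to 3.41) for mothers over virgin males. Within cluster 2, the ratios of Trpm6 were 0.271 (0.0822 to 0.706) and 1.54 (0.544 to 5.33). There the ratio of Trpm4 was 4.07 (0.974 to 36.1), from 18 UMIs in mothers and 2 in virgin males. Of 8 further cation and calcium-activated channel genes 2 passed 2-fold (25%, against 18.6% of all genes), namely Ano3 in cluster 4 (162.7 against 28.0 CPM) and Ano4 in cluster 1 (468.6 against 194.3 CPM). Hcn4, a pacemaker channel, had a ratio of 1.58 (1.09 to 2.29) for virgin males over virgin females, and of 1.42 (0.698 to 3.06) within cluster 3, its highest. Trpm5, Trpv5 and Mcoln2, the receptors Avpr1b, Cckar and Ghsr, and the phospholipase Plcb2 had 0 UMIs.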

How the data were processed

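The deposited files are raw UMI counts for each gene in each nucleus, and metadata that hold cell class, subtype labels, cluster number and the percent of mitochondrial UMIs, per the file headers. Cell Ranger 5.0.1 and GRCm38 (mm10) are named in the submitters' processing notes. Intron counting, filters on nuclei and the treatment of doublets are not stated. Each group was loaded as 1000 nuclei in its own lane, per the labels' protocols.

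The tables were joined by total UMIs and genes with a UMI, a pair unique for all 603 nuclei; the recomputed mitochondrial percent then differed by 0 from 1 of the authors' deposited columns of it and by up to 2.33 from the other. The matching column was chosen as the check after both had been compared. The libraries shared 0 barcodes. No doublet caller was run. UMIs of neuronal nuclei were summed per cluster and library and scaled to CPM; a cluster's level is the mean of its 3 library values. Intervals are exact Poisson (CPM), Clopper-Pearson (shares) and exact conditional binomial (ratios). Ratios needed 50 UMIs in the pair, or 20 within a cluster. With 1 library per group and clusters made from the same counts, no test was run. The interval computation was tested on simulated counts. Python 3.11.15, numpy 2.4.6, pandas 2.3.3, scipy 1.17.1 and matplotlib 3.10.9 were used.

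The members and gene lists were chosen with earlier results of these data known. Coding sequences and loci are from GENCODE M21 (GRCm38). Genes named beside the members are the 5 most like each member with 200 or more UMIs, and, of each list, up to 4 past 2-fold between clusters and up to 4 per comparison past 1.5-fold between libraries with an interval without 1. Results of some genes are not reported here, and they were left out of the lists. Alternatives were other scalings, equal weights, thinning to 5000 UMIs, other sets of nuclei, single clusters, leaving out a library and other measures of likeness.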

Additional observations from a re-analysis of the deposited data

Results flagged for a closer look

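For Trpc5 in mothers over virgin males, the direction differed between clusters. The ratio was 0.574 in cluster 0 and 0.423 in cluster 3, below 1, and 2.31 in cluster 4, above 1, each with a counting interval without 1. The difference between clusters was not tested, and the value of cluster 4 rested on 36 UMIs in mothers and 7 in virgin males.

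In nuclei outside the neuronal comparisons, Trpc1 had 5 UMIs, above the limit of 3 that a count of 0 allows. They were in 2 of 5 nuclei annotated as ependymal cells. Trpc5os, the antisense gene within Trpc5, had 17 UMIs in neuronal nuclei.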

How the results depend on the processing

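Values here are log2 ratios. In all 55 alternatives the ratio of a member's highest cluster to the mean of the others moved by less than 1 SD of the 3 libraries. That SD comes from the same 3 libraries, so leaving out 1 of them could hardly move the ratio past it. It ran from 0.26 for Trpc1 to 2.06 for Trpc6, whose ratio in virgin males rested on 1 UMI outside cluster 0. Staying within it therefore says little about robustness. Leaving out 1 library gave 0.17 to 0.42 for Trpc1, 1.06 to 1.78 for Trpc4, 0.58 to 1.18 for Trpc5, 2.07 to 3.23 for Trpc6 and 0.84 to 1.27 for Trpc7. The 2-fold line was crossed in 2 of 11 alternatives for Trpc4, 5 of 11 for Trpc5, 3 of 11 for Trpc7 and 0 for Trpc1 and Trpc6. Of the ratios between libraries over all neurons, 125 alternatives stayed within the counting interval of the value given in the report, 26 lay outside it and 3 reversed; the causes were not tested. The reversals were Trpc5 within cluster 2 for virgin males over virgin females (-0.44), and for mothers over virgin males within cluster 2 (0.64) and cluster 4 (1.21). For mothers over virgin females, Trpc1 was 0.44, -0.17 and -0.19 within clusters 1, 2 and 3. Trpc5 was -0.40 thinned and 0.26, 0.20, -0.68 and 0.77 within clusters 0, 2, 3 and 4, and Trpc7 was -0.43 thinned and 0.51 and -0.93 within clusters 0 and 2. For virgin males over virgin females, Trpc1 was -0.56 within cluster 4 and Trpc4 0.048 within cluster 1. Trpc5 was 0.081 thinned and 1.06 and 0.56 within clusters 0 and 3, and Trpc7 was -0.86 thinned and -1.10 and 1.28 within clusters 2 and 3. For mothers over virgin males, Trpc1 was -0.32 and 0.91 within clusters 3 and 4, Trpc5 -0.80 and -1.24 within clusters 0 and 3, and Trpc7 0.92, -0.50 and 0.93 within clusters 0, 3 and 4. Of 20 ratios of pathway genes taken within 1 cluster, 10 stayed within the interval, 9 lay outside it and 1 reversed, that of Hcrtr2 in cluster 2 for virgin males over virgin females (0.32). With no minimum of UMIs, 8179, 8300 and 8306 genes passed 1.5-fold (mothers over virgin females, virgin males over virgin females, mothers over virgin males), against 778, 758 and 726 with it, and 11823 against 2130 passed 2-fold between clusters. By Spearman's measure, 2 of the 5 genes most like Trpc1, 2 of those most like Trpc5 and 3 of those most like Trpc7 were shared. Trpc4 and Trpc6, at 114 and 94 UMIs, limit what any ratio of them can show. No paired analysis was possible because each group has 1 library.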
